A study of Mus musculus with 3 samples.

Results

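The NKG2, CD94 and Klre/Klri receptors of the mouse are encoded by 8 neighbouring genes on chromosome 6, Klre1, Klrd1, Klrk1, Klrc3, Klrc2, Klrc1, Klri1 and Klri2, out of 22350 protein-coding genes annotated on the mm9 genome build. Members were taken by gene symbol. Each gene body was extended by 20 kb on either side, and every Runx3-bound region (called a peak here) and every H3K4me1-marked region that shared at least 1 bp with this window was listed. The 8 windows joined into a single stretch, chr6:129507911-129710502 (202.6 kb), which held no other protein-coding gene. It carried 15 of the 15524 Runx3 peaks and 23 of the 49902 H3K4me1 regions.

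The lists come from chromatin immunoprecipitation sequencing (ChIP-seq) of freshly isolated, resting natural killer cells (NKC) from the spleens of ICR mice, an outbred strain. There were 3 samples with 1 sample per group: an in-house polyclonal antibody to the transcription factor Runx3, a monoclonal antibody to the monomethyl mark on lysine 4 of histone H3 (H3K4me1), and non-immune rabbit serum (NIS) as the control. Per the labels, the cells were fixed in 1% formaldehyde and the chromatin was sheared to about 300 bp. The labels give a sort for NKp46+ cells after negative selection, and the methods of the study name DX5 as the sorting marker. The number of mice pooled is not given in the sources used here. Each antibody has a single list of coordinates with no score, read count or spread between replicates, so presence, position, width and sequence of the called regions are described, and the strength of binding is not. No test between genes was possible.

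The products of these genes are C-type lectin-like receptors on the NKC surface. CD94 (Klrd1) pairs with NKG2 proteins: with the inhibitory NKG2A (Klrc1) and the activating NKG2C and NKG2E (Klrc2 and Klrc3), and these pairs recognise the non-classical class I molecule Qa-1. NKG2D (Klrk1) forms homodimers, signals through DAP10 and DAP12 and recognises stress-induced ligands of the Rae-1, H60 and Mult1 families, whereas Klre1 pairs with the inhibitory Klri1 or the activating Klri2. H3K4me1 is a mark of enhancers and of the flanks of active promoters, and Runx3 binds DNA through the RUNX motif.

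All 8 members had at least 1 Runx3 peak within 20 kb, against 51.0% of all protein-coding genes. The numbers of peaks were 9 for Klrd1, 8 for Klre1, 5 for Klrk1, 3 each for Klrc3 and Klrc2, 2 for Klri2 and 1 each for Klrc1 and Klri1. The median over the members was 3 and over all genes 1. The 8 counts are not independent of each other, because neighbouring windows overlap and 13 of the 15 peaks lay in more than 1 window, giving 32 pairs of a gene and a peak. As many peaks as at Klrd1 or more were found at 0.519% of all genes, as at Klre1 or more at 0.828%, and as at Klrk1 or more at 4.08%. For Klrc3 and Klrc2 this share was 14.1%, for Klri2 27.5%, and for Klrc1 and Klri1 51.0%, so the 1 peak of these last genes was the usual finding for any gene. The members' windows were close in size to those of other genes, with a median of 52.2 kb against 55.4 kb.

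**Figure D1:**
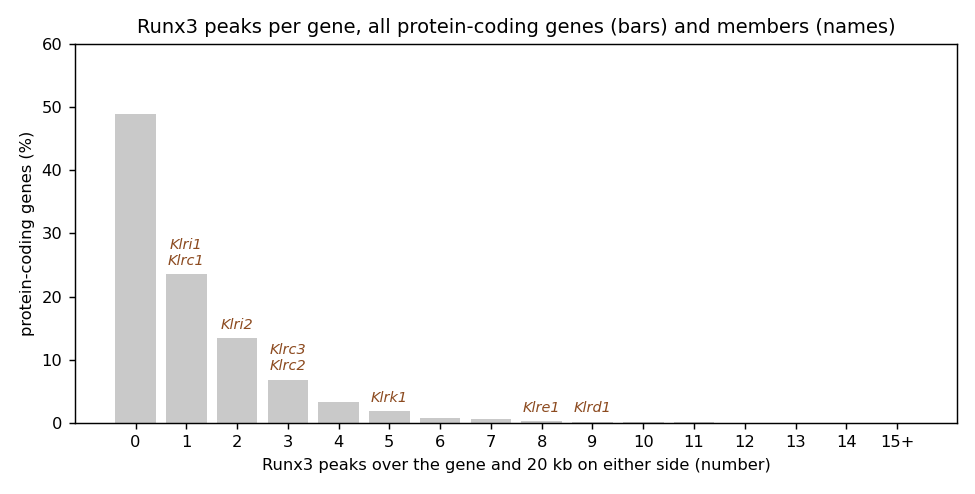
Number of Runx3 peaks over the gene body and 20 kb on either side (horizontal axis, the last bar pools 15 and more) against the percent of the 22350 protein-coding genes with that number (vertical axis, bars). The names stand above the bar of each member's own count: Klrd1 with 9 and Klre1 with 8 peaks lie far out in the tail, and Klrc1 and Klri1 with 1 peak lie in the body of the distribution.

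H3K4me1 was found within 20 kb of all 8 members, against 74.0% of all genes. The regions covered 94.8% of the window of Klrd1, 81.9% of that of Klrk1, 71.6% of that of Klre1 and 60.8% of that of Klri2. Lower shares were covered at Klri1 (40.1%), Klrc3 (35.3%), Klrc2 (34.3%) and Klrc1 (21.1%). The lowest of these was still above the median of all genes, 7.38%, and 5 of the 8 lay above the 95th percentile of 38.3%, namely Klrd1, Klrk1, Klre1, Klri2 and Klri1. Over the gene bodies alone the order differed: 100% of Klrd1, 90.4% of Klre1, 68.9% of Klrc3, 66.5% of Klrk1, 49.5% of Klri1, 46.3% of Klri2, 26.8% of Klrc1 and 0% of Klrc2 was covered. Klrc2 was thus the sole member without H3K4me1 on the gene itself.

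**Figure D2:**
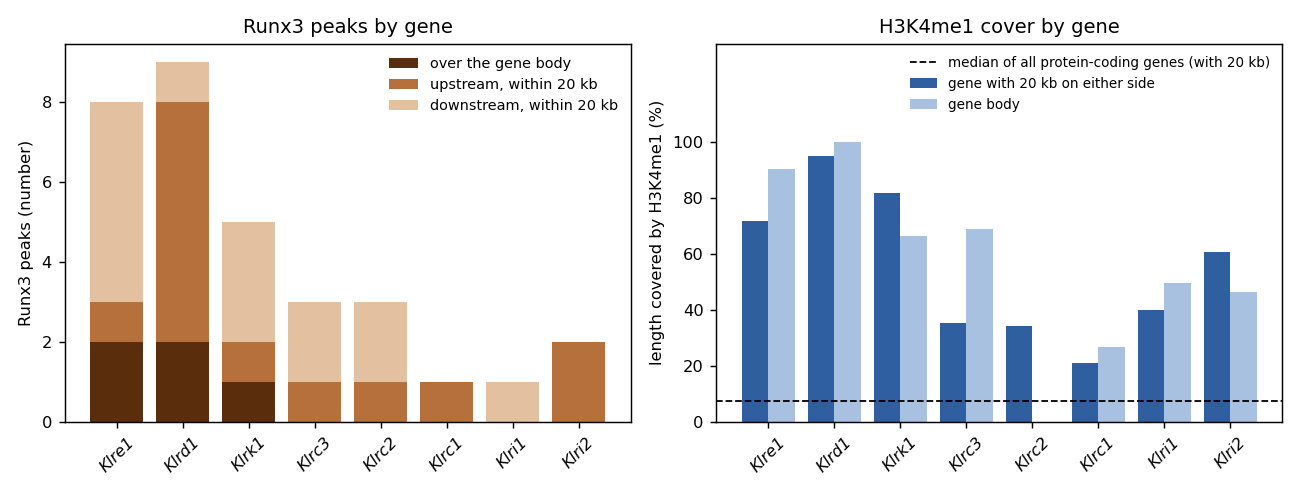
Left, number of Runx3 peaks per member, stacked by position over the gene body, upstream or downstream of it within 20 kb; right, percent of the length covered by H3K4me1, for the gene with 20 kb on either side (dark) and the gene body (light). The dashed line is the median of all protein-coding genes for the window with 20 kb. Klrd1 has most of its 9 peaks upstream, 5 members have no peak over the gene body, and Klrc2 has no light bar because 0% of its body was marked.

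Peaks and marks were unevenly spread along the cluster. The stretch was divided in the middle of the gap between Klrk1 and Klrc3, a division chosen after the positions were seen. The side with Klre1, Klrd1 and Klrk1 measured 73.4 kb and held 11 peaks, or 15.0 per 100 kb, and H3K4me1 covered 75.3% of it. The side with the Klrc and Klri genes measured 129.2 kb and held 4 peaks, or 3.10 per 100 kb, with 41.1% covered. Both sides differed in unique sequence. Stretches of 40 bases occurring once in mm9 made up 98.4, 93.8 and 89.4% of Klre1, Klrd1 and Klrk1. They made up 72.0, 39.9 and 45.6% of Klrc3, Klrc2 and Klrc1, and 90.1 and 91.7% of Klri1 and Klri2. The part of this in the densities was not tested. The median distance from the end of a peak to the next was 4.37 kb. The longest such gap, 64.9 kb, ran from the peak upstream of Klrc1 to the first peak upstream of Klri2 and contained the whole of Klri1 and Klri2. Outside the stretch the nearest peaks lay 4.85 kb and 56.9 kb from its ends.

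**Figure D3:**
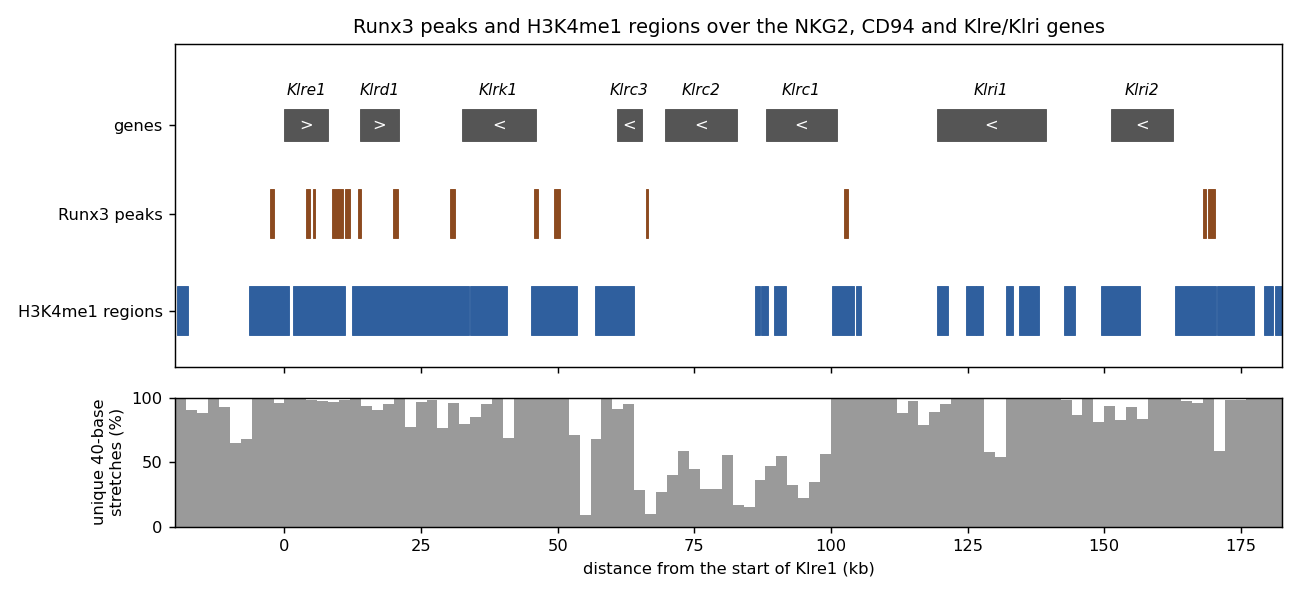
Map of the joined windows, with distance from the start of Klre1 in kb on the horizontal axis. The upper panel shows the 8 genes (arrowheads give the direction of transcription), the 15 Runx3 peaks and the 23 H3K4me1 regions; the lower panel shows, in bins of 2 kb, the percent of 40-base stretches that occur once in mm9. Peaks crowd around Klre1, Klrd1 and Klrk1, and the stretch without H3K4me1 across the Klrc3 start and Klrc2 coincides with low bars in the lower panel. Low bars continue over most of Klrc1, where H3K4me1 regions are listed.

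The whole stretch had 7.40 Runx3 peaks per 100 kb, 12.8 times the value of chromosome 6 (0.580), and H3K4me1 covered 53.5% of it, against 4.83% of the chromosome. The same kind of window around 2 other groups of lectin-like genes on this chromosome gave 6.50 peaks per 100 kb and 31.7% covered for 12 Klrb1 and Clec2 genes, and 3.04 peaks per 100 kb and 24.0% covered for 11 Ly49 (Klra) genes. A peak within 20 kb was found at 11 of the 11 Ly49 genes and at 8 of the 12 Klrb1 and Clec2 genes, against 51.0% of all genes. The median number of peaks was 2 in both groups. Klrb1b and Klrb1c had 12 peaks each, more than any member. These are values side by side, and their differences were not tested. Of the 15 peaks, 13 (86.7%, 95% Wilson interval 62.1 to 96.3%, counting error only) overlapped an H3K4me1 region, against 95.7% of all Runx3 peaks, a value inside this interval. Each of the 13 lay within H3K4me1 over its whole length. In the reverse direction, 6 of the 23 regions held a peak and 17 held none. The share of all 49902 regions that held a peak was not computed, so this count is not a trait of the cluster.

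The peaks had a median width of 786 bp, against 825 bp in the whole list. By midpoint, 12 lay between genes, 2 in introns and 1 in an exon. The distance from the midpoint was taken to the nearest annotated transcript start of a member, and other genes were not searched. It was under 1 kb for 3 peaks, 1 to 5 kb for 8 and over 5 kb for 4. Upstream of the nearest gene start of a member lay 11 of the 15. The shares of all Runx3 peaks at these positions were not computed. A peak under 1 kb from a start was found at 3 of 8 members, Klrd1, Klrk1 and Klrc3, against 27.2% of all genes. A peak over the gene body was found at 3 of 8 members, Klre1, Klrd1 and Klrk1, against 33.6% of all genes. A start inside an H3K4me1 region was found at 4 of 8, Klre1, Klrd1, Klrk1 and Klrc1, against 43.6% of all genes. For these 3 measures the members' shares were near those of all genes.

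Klrd1 encodes CD94, the common partner of the NKG2A, NKG2C and NKG2E chains, and had the highest number of peaks of the cluster. The gene (chr6:129541800-129548793, plus strand) lay entirely within an H3K4me1 region of 21.3 kb, chr6:129540347-129561692, the widest of the cluster and number 147 by width of all 49902 regions. This region also reached into the 3′ end of Klrk1. A peak of 576 bp, chr6:129541403-129541978, covered the Klrd1 start, with its midpoint 0.11 kb upstream. A chain of 3 further peaks stood 2.32, 3.65 and 4.67 kb upstream of the start, between Klre1 and Klrd1. Neighbouring peaks of this chain were as little as 0.103 kb apart. The peak at 2.32 kb, chr6:129539061-129539902, was 1 of the 2 in the cluster outside H3K4me1, but only 26 bp separated it from the nearest region. Another peak, chr6:129547807-129548611, lay at the 3′ end of Klrd1, 6.41 kb from the start, over a short coding exon of 1 transcript. All 5 of these peaks held RUNX words, which are TGTGGT, its form TGTGGC with a last C, and the forms with CG, TGCGGT and TGCGGC, on either strand. Each peak held between 3 and 6. The central 200 bp of the peak at 4.67 kb and of the one at the 3′ end are shown because they hold 3 words each, and the one at the start because it is nearest to a transcript start. The first and the second of these were chosen after their values were seen. They are printed 5′ to 3′ on the plus strand of mm9, which is the strand of Klrd1, with RUNX words in capitals. A word on the opposite strand reads ACCACA or GCCACA here, and in the first sequence 2 words overlap in a palindrome.
Klrd1 upstream 4.67 kb, chr6:129537029-129537228: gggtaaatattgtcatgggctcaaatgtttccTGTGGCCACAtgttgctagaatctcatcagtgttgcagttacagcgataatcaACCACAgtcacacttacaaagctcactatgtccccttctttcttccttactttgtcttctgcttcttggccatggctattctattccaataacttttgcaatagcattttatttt
Klrd1 start, chr6:129541591-129541790: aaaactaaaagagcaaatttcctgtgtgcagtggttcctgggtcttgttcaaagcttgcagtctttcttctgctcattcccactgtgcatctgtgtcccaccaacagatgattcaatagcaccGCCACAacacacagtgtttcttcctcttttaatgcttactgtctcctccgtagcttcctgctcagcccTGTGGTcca
Klrd1 3′ end, chr6:129548110-129548309: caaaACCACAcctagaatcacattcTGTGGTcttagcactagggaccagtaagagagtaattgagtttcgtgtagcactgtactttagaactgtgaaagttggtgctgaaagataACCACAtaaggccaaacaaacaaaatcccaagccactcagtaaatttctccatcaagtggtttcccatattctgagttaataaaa

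Klre1 encodes the shared subunit of the Klri1 and Klri2 receptors and lies next to Klrd1 on the same strand (chr6:129527911-129535842). It had 8 peaks within 20 kb, of which 5 were downstream: the 3 of the Klrd1 chain and those at the start and the 3′ end of Klrd1. The nearest peak to its own start was 2.28 kb upstream (chr6:129525208-129526059, 852 bp), and no peak lay under 1 kb from the start. The start was within an H3K4me1 region of 7.34 kb, and a second region of 9.55 kb that ran from inside the gene to the space before Klrd1 held 4 peaks. Of these, 2 lay inside Klre1, 4.23 and 5.41 kb from its start, each with the midpoint in an intron and reaching into a coding exon. The peak upstream held 1 RUNX word. The peak at 5.41 kb, chr6:129533065-129533577, was 1 of 2 in the cluster with 0 RUNX words, and is shown for that reason beside the upstream one. In its central 200 bp it held an AP-1 word, TGAGTCA, and 2 bases further a T-box word, AGGTGTGA. Capitals mark the RUNX word in the first sequence and the AP-1 and T-box words in the second, both on the plus strand.
Klre1 upstream 2.28 kb, chr6:129525534-129525733: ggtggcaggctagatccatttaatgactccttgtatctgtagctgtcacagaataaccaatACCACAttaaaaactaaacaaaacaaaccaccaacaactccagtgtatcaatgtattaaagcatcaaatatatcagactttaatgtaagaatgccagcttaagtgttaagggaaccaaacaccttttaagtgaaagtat
Klre1 intron, chr6:129533222-129533421: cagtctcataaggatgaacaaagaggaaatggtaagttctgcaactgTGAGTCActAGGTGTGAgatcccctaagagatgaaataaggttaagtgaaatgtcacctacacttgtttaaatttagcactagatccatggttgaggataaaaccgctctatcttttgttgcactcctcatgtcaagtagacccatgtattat

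Klrk1 encodes NKG2D and is the first gene of the cluster on the minus strand (chr6:129560341-129573882). A peak of 583 bp, chr6:129573648-129574230, covered the base of its outermost start, with the midpoint 0.057 kb upstream, and lay in an H3K4me1 region of 8.52 kb together with a second peak 3.81 kb upstream. Of the 4 annotated starts of Klrk1, the outermost was inside this region, and the other three, each over 1 kb from the peak midpoint, were in none. A further peak, chr6:129558146-129559114, lay beyond the 3′ end of the gene, 15.2 kb downstream of the start, and held 4 RUNX words, 3 of them in its central 200 bp. It fell in the 21.3 kb region that also covered Klrd1. The peak at the start held 2 RUNX words and 1 AP-1 word. The 200 bases that end next to the Klrk1 start are shown as the start-proximal sequence of NKG2D, on the minus strand of mm9, 5′ to 3′, with RUNX words in capitals. Both words read on the strand of the gene.
Klrk1 start, chr6:129573883-129574082: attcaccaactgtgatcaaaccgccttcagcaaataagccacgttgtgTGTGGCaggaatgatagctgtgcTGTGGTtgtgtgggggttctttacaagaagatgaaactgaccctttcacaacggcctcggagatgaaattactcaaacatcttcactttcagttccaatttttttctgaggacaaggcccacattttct

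The Klrc genes, which encode the NKG2 chains that pair with CD94, lie in a row on the minus strand: Klrc3 (chr6:129588711-129593355), Klrc2 (chr6:129597514-129610707) and Klrc1 (chr6:129616033-129628991). At Klrc3 and Klrc1 a single peak stood upstream of the start. That of Klrc3, chr6:129594017-129594362, had its midpoint 0.83 kb upstream of the start. It was 346 bp wide, the narrowest of the cluster and near the narrowest of the whole list (327 bp), overlapped no H3K4me1 and was 2106 bp from the nearest region. That of Klrc1, chr6:129630238-129631016, was 779 bp wide, had its midpoint 1.64 kb upstream and lay in an H3K4me1 region of 4.08 kb that also covered the Klrc1 start. Klrc2 had no peak of its own: the nearest to its start was the Klrc3 peak, 16.5 kb away on the 3′ side.

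The 5′ ends of Klrc3 and Klrc2, with the sequence upstream of them, are near copies. Over 6.70 kb, chr6:129591384-129598083 around the Klrc3 start and chr6:129608654-129615351 around the Klrc2 start were 98.7% identical in mm9. The Klrc3 peak had a counterpart at chr6:129611284-129611629, 0.75 kb upstream of Klrc2, with 345 of 346 bases identical and all 3 RUNX words kept. No Runx3 peak and no H3K4me1 region was listed there. The Klrc1 peak contained a more distant relative of the same sequence. The 3 related stretches are shown because the same pair of RUNX words (capitals) occurs at the same aligned positions in each, while a peak is listed at Klrc3 and Klrc1 and not at Klrc2. They are printed on the minus strand of mm9, the strand of the genes, 5′ to 3′.
Klrc3, chr6:129594038-129594286: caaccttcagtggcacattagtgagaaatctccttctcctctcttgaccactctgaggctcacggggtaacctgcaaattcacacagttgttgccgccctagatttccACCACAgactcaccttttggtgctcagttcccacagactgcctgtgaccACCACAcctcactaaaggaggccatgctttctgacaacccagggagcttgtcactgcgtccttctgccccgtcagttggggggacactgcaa
Klrc2, chr6:129611305-129611553: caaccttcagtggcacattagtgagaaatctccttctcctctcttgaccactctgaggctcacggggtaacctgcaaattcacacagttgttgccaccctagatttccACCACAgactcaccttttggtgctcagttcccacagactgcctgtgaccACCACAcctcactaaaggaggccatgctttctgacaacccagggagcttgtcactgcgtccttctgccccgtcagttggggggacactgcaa
Klrc1, chr6:129630498-129630754: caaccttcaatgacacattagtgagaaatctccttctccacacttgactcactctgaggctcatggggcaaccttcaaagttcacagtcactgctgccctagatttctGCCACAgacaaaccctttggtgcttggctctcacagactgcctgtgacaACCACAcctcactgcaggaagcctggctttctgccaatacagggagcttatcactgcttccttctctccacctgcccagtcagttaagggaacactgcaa

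Between the first and the second of these 248 of 249 bases were identical, and the single difference was G96A, counted from the 5′ end of the printed stretch with the Klrc3 base first. Klrc3 and Klrc1 shared 81.9% of 259 alignment columns, and Klrc2 and Klrc1 81.5%. The words were TGTGGT and TGTGGT at Klrc3 and Klrc2, and TGTGGC and TGTGGT at Klrc1, all read on the opposite strand. In the 3 kb upstream of each start there were 7 RUNX words at Klrc3, 6 at Klrc2 and 6 at Klrc1, so the Klrc2 side did not stand out by its number of words.

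The authors kept uniquely aligned reads of 40 bp, and a near copy limits where such reads can be placed. Of the 307 stretches of 40 bases in the Klrc3 peak, 40 (13.03%) occurred once in mm9 on either strand, and these 40 were the ones that covered the single base that differs from the Klrc2 copy. The counterpart upstream of Klrc2 had the same share, 13.03%, and the Klrc1 peak had 100%. Within 1 kb of the start the share of unique stretches was 18.3% for Klrc3, 15.3% for Klrc2 and 100% for Klrc1. Over the gene bodies it was 72.0%, 39.9% and 45.6%, so most of Klrc1 away from its start was not unique either. H3K4me1 regions at and near the 3′ end of Klrc1 were listed with shares of 34.5, 42.1 and 58.1%. The longest stretch of the cluster without H3K4me1, 22.1 kb (chr6:129591911-129613966), held the Klrc3 start, its peak and all of Klrc2, and 32.3% of its stretches were unique. The next longest was 13.8 kb. Over the whole cluster 93.5% of the 40-base stretches starting in H3K4me1 were unique, and 67.7% of those outside it, with 87.4% on chromosome 6. The part of unique alignment in the missing calls at Klrc2 was not tested, and neither was whether ICR mice carry the mm9 base at the differing position. With Klrc3 left without its peak, 2 of 8 members would have a peak under 1 kb from a start, and 8 of 8 would still have one within 20 kb.

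**Figure D4:**
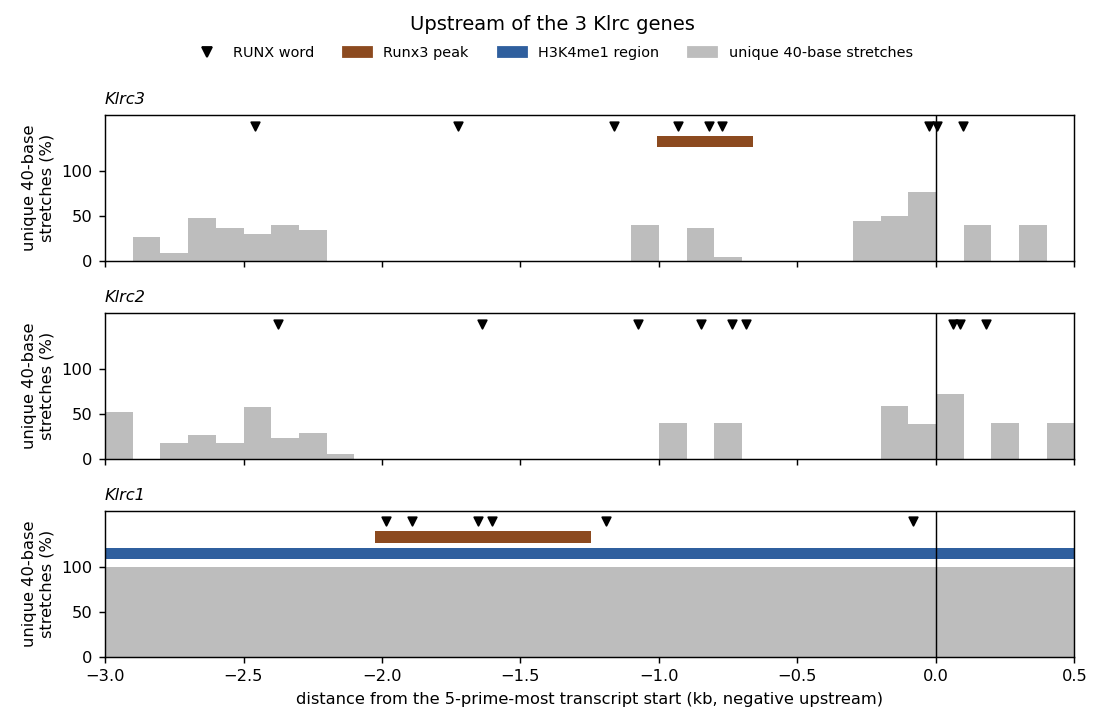
The 3 kb upstream and 0.5 kb downstream of the outermost transcript start of Klrc3, Klrc2 and Klrc1 (horizontal axis, kb, negative upstream). Grey bars give the percent of 40-base stretches unique in mm9 per 0.1 kb, brown bars Runx3 peaks, blue bars H3K4me1 regions and triangles RUNX words: Klrc3 and Klrc2 have similarly placed triangles and mostly low grey bars with 1 brown bar at Klrc3, and Klrc1 has full grey bars, a peak and an H3K4me1 region.

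Klri1, which encodes the inhibitory partner of Klre1 (chr6:129647236-129667150, minus strand), had, with Klrc1, the fewest Runx3 peaks within 20 kb. Its 1 peak within 20 kb lay on the 3′ side and was the Klrc1 peak, and upstream of its start the nearest was 29.1 kb away. H3K4me1 over Klri1 was in small pieces: 9 regions touched its window, the highest number among the members, and those that touched the gene itself were 1195 to 3702 bp wide. None of the regions on Klri1 held a peak. The start was not in H3K4me1. In contrast to Klrc2, most 40-base stretches of Klri1 were unique, 90.1% of the gene body and 98.7% of the 1 kb on either side of the start.

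Klri2, which encodes the activating partner of Klre1 (chr6:129679059-129690502, minus strand), had 2 peaks, both upstream and both in an H3K4me1 region of 7.53 kb that began just before the gene. They stood 5.74 kb (chr6:129695884-129696599) and 7.04 kb (chr6:129696928-129698162) from the start. The second, of 1235 bp, was the widest peak of the cluster, wider than 91.6% of all peaks, and held 3 RUNX words, 1 of them in its central 200 bp. The first held 0 words and had the highest GC content of the cluster, 52.2%, against a median of 39.8%. Its central 200 bp are shown on the minus strand of mm9, with no capitals because none of the words searched occurred there.
Klri2 upstream 5.74 kb, chr6:129696142-129696341: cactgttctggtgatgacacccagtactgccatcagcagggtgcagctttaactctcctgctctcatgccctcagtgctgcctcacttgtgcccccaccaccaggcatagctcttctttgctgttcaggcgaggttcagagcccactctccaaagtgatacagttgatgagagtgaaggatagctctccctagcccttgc

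The letters under the 15 peaks were compared with those under all Runx3 peaks, using the central 200 bp of each so that width did not enter. A RUNX word was present in 13 of 15 peaks (86.7%, 62.1 to 96.3%), against 69.2% of all peaks, which lay inside the interval. The variant TGTGGT was present in 11 peaks (73.3%, 48.0 to 89.1%), against 41.2%, and TGTGGC in 6 (40.0%), against 24.3%. The variants with CG, TGCGGT and TGCGGC, were present in 0 of 15, against 12.8% and 10.9%; the Wilson interval of 0 of 15 reaches 20.4%. Pairs of RUNX words that did not overlap and were at most 50 bp apart were found in 6 peaks (40.0%, 19.8 to 64.3%), against 19.4%. These were the peak 4.67 kb upstream of Klrd1, that at the Klrd1 3′ end, those downstream and at the start of Klrk1, and those of Klrc3 and Klrc1. Over whole peaks the cluster had 38 RUNX words, with a median of 3 per peak against 2 in the whole list, and 86.7% of its peaks had a word against 93.3%. On this scale TGTGGT was present in 80% (54.8 to 93.0%), against 65.5%, and pairs in 46.7% (24.8 to 69.9%), against 34.7%. Both shares of all peaks then lay inside the interval, unlike in the central 200 bp. There the interval for pairs began at 19.8%, only just above 19.4%. The intervals take the peaks as independent, but the Klrc3 and Klrc1 peaks are related copies with their pair at the same aligned positions.

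Words of other factors were fewer than RUNX words. An ETS word (AGGAAGT or CGGAAGT) was present in the central 200 bp of 1 peak, the one 2.32 kb upstream of Klrd1, against 20.1% of all peaks, and over whole peaks also in 1 of 15 (6.67%, 1.19 to 29.8%), against 41.8%. The share of all peaks lay inside this interval for the central 200 bp and above it for whole peaks. In that 1 peak the ETS word overlapped a RUNX word by 1 base. No peak of the cluster thus had an ETS and a RUNX word apart and within 50 bp. Of all peaks, 8.99% had such a pair in the central 200 bp and 16.9% over the whole peak. The Wilson interval of 0 of 15 reaches 20.4%. AP-1 words (TGACTCA or TGAGTCA) were present in 3 peaks (20%, 7.05 to 45.2%), inside Klre1, at the Klrk1 start and upstream of Klrc1. The share of all peaks, 5.46%, lay below this interval. Over whole peaks AP-1 words were present in 4 (26.7%, 10.9 to 51.95%), the fourth being the wider Klri2 peak with 2 words. The share of all peaks was then 16.5%, which lay inside the interval. The T-box word was present in 1 peak, against 2.22%. The STAT word TTCNNNGAA was present in 0 of 15, against 5.50%, and over whole peaks in 3 (20%), against 22.3%. A match is a description of the letters and was not tested as a binding site, and the GC content of the peaks was not matched in these comparisons.

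**Figure D5:**
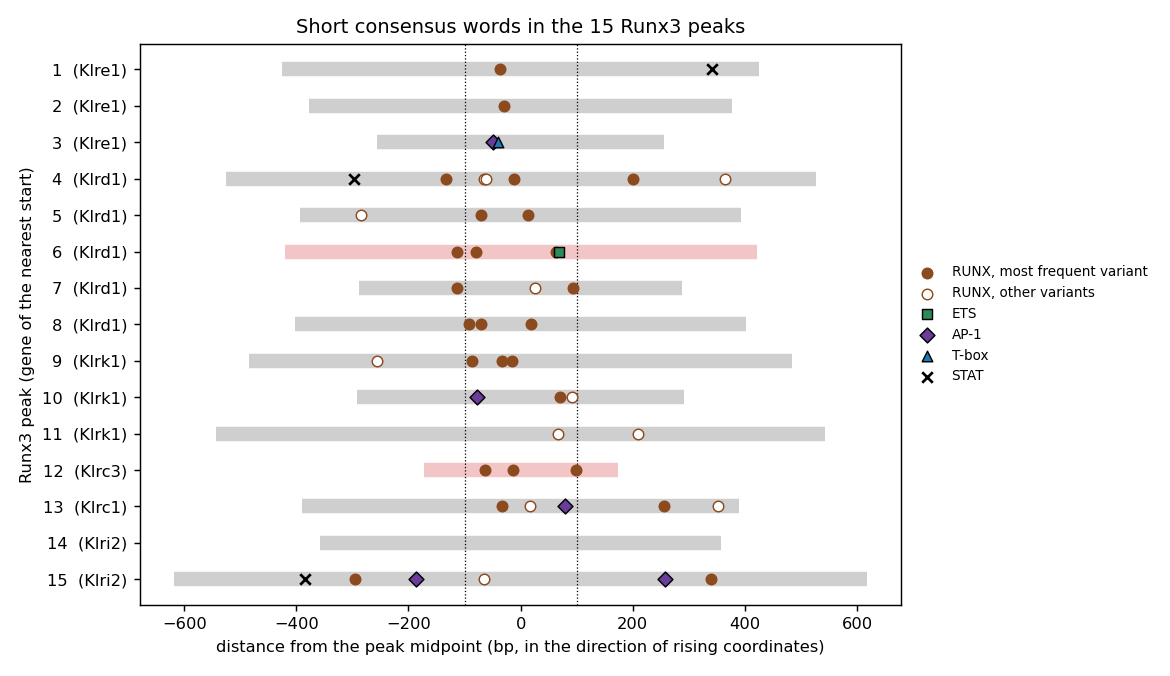
Positions of the searched words (symbols) along the 15 Runx3 peaks (horizontal bars, true width), numbered in the order of their coordinates and labelled with the gene of the nearest start. The horizontal axis is the distance from the peak midpoint in bp, dotted lines bound the central 200 bp, filled circles are TGTGGT, and pink bars are the 2 peaks outside H3K4me1. Most RUNX circles lie between the dotted lines, and peaks 3 and 14 have none.

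Promoter windows from 250 bp before to 50 bp after the outermost start were searched in the same way in mm9. A RUNX word was found in 6 of the 8 members, 3 words at Klrd1, 2 each at Klrk1 and Klrc3 and 1 each at Klre1, Klrc1 and Klri1, against 45.3% of all promoters. Klrc2 and Klri2 had 0. The 0 at Klrc2 depended on where its start is annotated. Words lay 0.06 and 0.087 kb after that start, past the edge of the window. At Klrc3, whose 5′ end is a near copy, words lay at -0.024 and 0.003 kb from the start (negative upstream). Of the 6 promoters with a word, those of Klrd1 and Klrk1 were covered by a peak at the start.

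The partners and ligands of these receptors were examined with the same windows, from a list of 24 genes of which 18 were found by symbol in the annotation. Not found were Syk, Raet1a, Raet1b, Raet1e, H60a and Ulbp1. The window lengths of the genes found were not compared with those of all genes. All 12 adaptor and signalling genes found had a Runx3 peak within 20 kb, with a median of 6.5 peaks, against 51.0% of all protein-coding genes and a median of 1. Hcst, which encodes the NKG2D adaptor DAP10, had 8, and its neighbour Tyrobp, which encodes DAP12, had 9, and both had H3K4me1 over 100% of the gene and a peak over the start; the windows of these neighbours overlap. Of the phosphatase genes, Inpp5d had 8 peaks, Ptpn6 had 5, and Ptpn11 had 2, the lowest number of the group, with none within 5 kb of the gene. Of the 6 ligand genes found, 4 had a peak, with a median of 1: H2-D1 had 4, H60b had 3, H60c and H2-T23, which encodes the Qa-1 heavy chain, had 1 each, and Raet1c and Raet1d had 0. The ligand genes' share and median were near those of all genes. Median H3K4me1 cover of the window was 52.8% for the adaptor and signalling genes and 16.1% for the ligand genes, against 7.38% for all genes.

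The labelled cell type was compared with marker genes by the same rule. All 6 NKC markers (Ncr1, Klrb1c, Eomes, Tbx21, Itga2 and Prf1) had a Runx3 peak, against 51.0% of all protein-coding genes, and 5 had it under 1 kb from a start, against 27.2%. Of the T, B and myeloid markers, 2 of 5, 3 of 4 and 2 of 4 had a peak within 20 kb and 0 had one under 1 kb from a start. The shares of all genes were again 51.0% and 27.2%. Cd8a, Cd8b1, Ms4a1 and Lyz2 had neither a peak nor an H3K4me1 region in their windows. Chromatin lists do not measure expression.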

How the data were processed

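Resting splenic NKC were profiled by ChIP-seq for Runx3 and H3K4me1, with NIS as control. The authors aligned reads of 40 bp to mm9 with ELAND (CASAVA 1.7 per the submitters' processing notes), kept unique alignments and pooled repeat experiments. After the bigger library had been scaled down, they called regions with MACS against NIS. The deposited values are start and end coordinates only. They hold no count, score or p-value, so the depth at a region is unknown, no test was run, and the 95% Wilson intervals reflect the number of peaks alone. The lists name no sample, and each was taken as pooled for its antibody.

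Chromosome lengths matched mm9 except for 1 H3K4me1 region that ran past a chromosome end. Genes and transcript starts came from GENCODE M1 on the same build, and coordinates are 1-based. A region counted when it shared at least 1 bp with a gene body extended by 20 kb. Words were searched on both strands, and overlapping words counted separately. Copies of peaks were found with BLAST+ 2.17.0 (word size 11, E-value limit 1e-10), and 40-base stretches were called unique when they occurred once in mm9 on either strand. Other tools were Python 3.11.15, pandas 2.3.3, numba 0.67.0 and pysam 0.24.0, and the counting of words and of unique stretches was tested on simulated data.

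The members and lists were chosen with earlier results of these data known. Named are the 8 members, the listed peaks and regions over them, and the pathway and marker lists. Sequences are those of the peak nearest to each start, and others are said to have been chosen for their content. Alternatives changed the flank, the overlap rule, the width minimum, the start rule and the motif window. Protein sequences were not used here.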

Additional observations from a re-analysis of the deposited data

How the results depend on the processing

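Of 39 alternatives to 9 values, 30 left the value within the limit used and 9 moved it further. The limit was 1.5 times for a count or density, the Wilson interval over peaks for a share of peaks, and for H3K4me1 cover a Wilson interval over bases, which is narrow because neighbouring bases are not independent. Values inside the limit still changed. With 5 kb on either side 6 of 8 members had a peak, and Klri1 and Klri2 had none. With only peaks wider than the median 6 of 8 also had one. A peak over the start base was found at 2 members in place of 3. The shares of all genes under these rules were not computed, so these counts have no background beside them. With gene bodies alone, 3 of 8 members had a Runx3 peak, against 33.6% of all genes. The cluster then held 5 peaks and 15 H3K4me1 regions, which covered 49.7% in place of 53.5%. H3K4me1 cover was 56.3% with 5 kb on either side, 48.1% with 50 kb, and 49.1% with only regions wider than the median of the list. With only Runx3 peaks wider than the median, 6 peaks remained, or 2.96 per 100 kb in place of 7.40. Such a filter lowers the density of the whole list by construction, and the density of chromosome 6 under it was not computed. Leaving out peaks in which under 50% of the 40-base stretches are unique, an alternative added after seeing the data, removed the Klrc3 peak. It gave 14 peaks, 2 members with a peak near a start, 92.9% of peaks in H3K4me1 and 85.7% with a RUNX word.

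No paired analysis was possible because each antibody has 1 list. The lists hold no scores, so width stood in for a stricter threshold. Without depth, a missing call says that no region was listed, not that Runx3 or H3K4me1 is absent. Reads of outbred ICR mice were aligned to a C57BL/6J reference, and a sequence that differs between the strains cannot be told apart from one that is unmarked.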
